A study of Homo sapiens with 6 samples.

Results

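Transcript levels of 29 genes that p53 is known to induce or that regulate p53 were followed by RNA sequencing in LNCaP, an androgen-responsive line from a human prostate tumour. The members and their roles were chosen from general knowledge of the p53 pathway, but with earlier results of these data known. All 29 were found by symbol among the 23354 genes of the deposited count table. They also passed the low-count filter that left 13466 genes for testing. Every library came from cells given dihydrotestosterone (DHT), a potent natural androgen, at 1 nM for 48 h. In 3 libraries (the DHT group) the cells received nothing else that the labels name, and in 3 (the DHT+WBM group) they also received a white button mushroom (WBM) extract at 3 µL/mL. The labels do not say whether a vehicle stood in for the extract, and no library without DHT was analysed here. Whether the libraries of a group stem from different cultures is not stated, and p-values therefore reflect a spread among libraries that can be technical.

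p53 is a transcription factor that is stabilised by DNA damage and other stress and then switches on genes that stop the cell cycle, help repair DNA, promote cell death and shift metabolism. Among its targets is MDM2, whose protein marks p53 for destruction, so that a rise of p53 activity normally raises its own inhibitor. LNCaP cells are known to carry p53 of the normal sequence. Several of the target genes are also known to answer to factors other than p53, CDKN1A among them.

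With the extract, the arrest genes rose together and most of the death, quality control, redox and metabolism genes rose. None of the 4 feedback genes rose, a count near the 29.2% share of all tested genes that rose. CDKN1A, which encodes the CDK inhibitor p21, rose 2.36-fold and TP53I3, an oxidoreductase gene, rose 2.37-fold, whereas MDM2 was 315 ± 9.88 CPM (counts scaled to a common total and for library composition, mean ± SD, n = 3) in DHT and 322 ± 10.3 CPM in DHT+WBM. In the edgeR quasi-likelihood test, with Benjamini-Hochberg correction across 13466 genes and a threshold of 0.05, 17 members rose, 5 fell and 7 missed the threshold. The same test called 58.2% of all tested genes, 29.2% as higher and 29% as lower, against 22 of 29 members (75.9%) in either direction. The median log2 fold change of the members (DHT+WBM over DHT) was 0.25, and that of all tested genes was 0.00286. A change of at least 2-fold was seen for CDKN1A and TP53I3 alone among the members, and for 5.7% of all tested genes. The DHT and DHT+WBM libraries did not overlap for 22 members, which were the 22 that passed the test, and for 62.2% of all tested genes. In bulk RNA, a smaller share of cells that express a gene and less RNA per cell cannot be told apart.

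**Figure D1:**
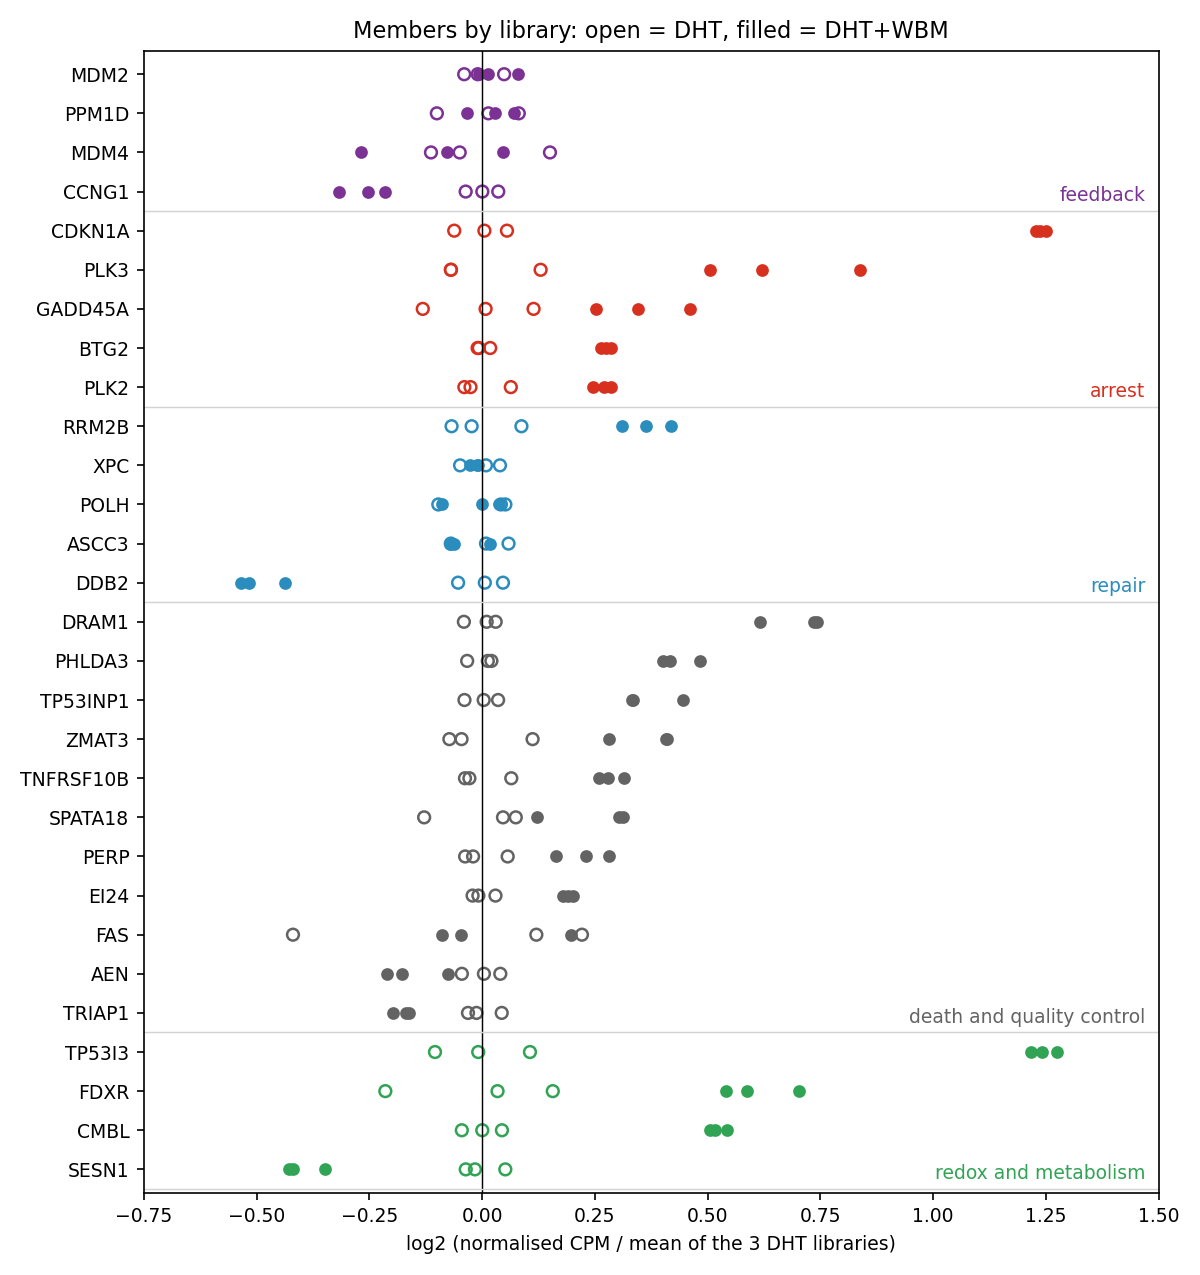
Level of each of the 29 members in each library, as the log2 of its normalised CPM over the mean of the 3 DHT libraries (x axis), grouped by role; open points are DHT and filled points DHT+WBM. The filled points of CDKN1A and TP53I3 stand farthest to the right, those of all 5 arrest genes lie to the right of the open ones, and those of MDM2, PPM1D and MDM4 overlap the open ones.

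The libraries held 19127357 to 21490953 counts. A member's count in a library was never below 62, the value of PLK3 in its lowest library. Of 7 markers of luminal prostate cells all were detected, with a summed level of 3577 to 3815 CPM in DHT and 2306 to 2348 CPM in DHT+WBM. KLK3 made the largest part of that fall, with a mean of 1683 CPM in DHT and 617 CPM in DHT+WBM. KLK2, TMPRSS2 and HOXB13 were also lower, KRT8 was higher (log2 fold change 0.20), and FOLH1 (-0.064) and KRT18 (0.0099) did not pass the test. Markers of leukocytes, endothelium, fibroblasts, basal epithelium and muscle (7 genes) summed to 9.95 to 11.7 CPM in DHT and 11.1 to 11.8 CPM in DHT+WBM. COL1A1 made up nearly all of that sum, and KRT5 and COL1A2 had no count. The part of the luminal markers' changes in the members' changes was not tested.

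Promoter sequences of the members were searched for the p53 motif. RefSeq windows on GRCh38.p14, from 250 bases before each start to 50 after it, were found for 22 of the 29 members and 33 starts. The p53 consensus decamer, a 10-base unit that p53 binds in pairs, reads as the same pattern on both strands and was searched without mismatches. It occurred in 7 of the 33 member windows (21.2%) and in 6.63% of all 35116 windows. The members were listed for their known link to p53, so their higher share says nothing about the extract. All windows also include those of genes not tested here. A pair of decamers 0 to 13 bases apart occurred in 10 of all windows (0.0285%), and among the members in DDB2 alone. The stretches of 30 bases are shown because they hold all the exact matches found in the members' windows, with the decamers in capitals.
PLK2 (chr5:58460199-58460228, minus strand): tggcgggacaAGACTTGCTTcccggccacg
DDB2 (chr11:47214975-47215004, plus strand): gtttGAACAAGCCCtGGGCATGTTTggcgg
FAS (chr10:88991299-88991328, plus strand): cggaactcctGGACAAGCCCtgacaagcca
AEN (chr15:88621296-88621325, plus strand): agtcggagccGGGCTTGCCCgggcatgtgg
EI24 (chr11:125569457-125569486, plus strand): cgtgcggcccGGGCATGCCCagtgcgggcg
SESN1 (chr6:109009018-109009047, minus strand): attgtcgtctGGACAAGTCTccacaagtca
FDXR (chr17:74872986-74873015, minus strand): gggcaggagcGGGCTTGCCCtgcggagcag
In DDB2 the decamers begin at bases 6 and 17 after the start, counting the start as base 1. For DDB2, FAS, SESN1 and FDXR the window shown is from 1 of several starts that RefSeq lists. Of the 7 genes with a match, PLK2, EI24 and FDXR rose, DDB2, AEN and SESN1 fell, and FAS did not pass the test. Put the other way, 3 of the 11 members that rose and have a window held a decamer, and 3 of the 5 that fell did. These are matches of letters within a short window, and p53 is known to bind many targets farther from the start or within introns.

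CDKN1A and TP53I3, the members with the largest rises, had no decamer in their windows. Their 250 bases before the start are shown because their fold changes were nearly equal, with the GC box (GGGCGG, searched on both strands) in capitals.
CDKN1A (chr6:36678464-36678713, plus strand): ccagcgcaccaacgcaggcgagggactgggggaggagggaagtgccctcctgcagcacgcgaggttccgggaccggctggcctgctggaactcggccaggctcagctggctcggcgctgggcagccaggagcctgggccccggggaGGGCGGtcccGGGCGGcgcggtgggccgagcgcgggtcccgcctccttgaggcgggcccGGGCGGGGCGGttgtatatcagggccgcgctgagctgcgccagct
TP53I3 (chr2:24084835-24085084, minus strand): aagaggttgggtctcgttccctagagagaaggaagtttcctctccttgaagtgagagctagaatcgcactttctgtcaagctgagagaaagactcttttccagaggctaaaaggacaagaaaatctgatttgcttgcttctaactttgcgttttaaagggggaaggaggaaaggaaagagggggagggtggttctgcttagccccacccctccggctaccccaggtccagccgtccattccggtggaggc
The CDKN1A stretch holds 4 GC boxes, the last 2 of which share a base, and the TP53I3 stretch holds none. GC boxes occurred in 42.6% of all windows over the same 250 bases and in 75.8% of the 33 member windows. All windows include those of genes not tested here, some genes have several windows, and the difference in share was not tested.

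No feedback gene rose by the test. Among all tested genes 29.2% rose, and with 4 feedback genes a count of 0 is near that share. MDM2 encodes the ubiquitin ligase of p53. It lay on chromosome 12 (69201971 to 69239320, plus strand, hg19) and was at 313, 326 and 307 CPM in DHT replicates 1 to 3 and at 318, 333 and 314 CPM in DHT+WBM replicates 1 to 3. The groups overlapped, and the log2 fold change was 0.03 ± 0.04 (SE), with a 95% confidence interval of -0.05 to 0.11 (edgeR adjusted p = 0.537). With 6288 to 6809 counts per library, this interval lay below the log2 fold change of every member that rose, of which EI24 had the smallest (0.19). It overlapped the interval of SPATA18 (0.101 to 0.396), and differences between MDM2 and these members were not tested. PPM1D, the gene of a phosphatase that switches off p53 and its activating kinases, was at 37.1, 40.1 and 42.0 CPM in DHT and at 38.8, 41.8 and 40.5 CPM in DHT+WBM. The groups overlapped here too, with a log2 fold change of 0.02 and a confidence interval of -0.09 to 0.14 (edgeR adjusted p = 0.747).

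MDM4, whose protein binds p53 and blunts its activity, was at 37.6, 32.7 and 31.3 CPM in DHT and at 32.1, 35.0 and 28.1 CPM in DHT+WBM. Its log2 fold change of -0.10 ± 0.07 did not pass the test (edgeR adjusted p = 0.221), but without DHT+WBM replicate 2 it was -0.18 (edgeR adjusted p = 0.0336). Its span overlaps that of LRRN2 on the opposite strand, which averaged 46.5 counts per library against 672 for MDM4. CCNG1, the gene of cyclin G1, which recruits a phosphatase to MDM2, was the feedback gene that fell. It was at 415, 436 and 425 CPM in DHT and at 341, 367 and 357 CPM in DHT+WBM. Every DHT+WBM library lay below every DHT library, and the log2 fold change was -0.26 ± 0.04 (edgeR adjusted p = 3.40e-07).

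All 5 arrest genes rose, against 29.2% of all tested genes, and their median log2 fold change was 0.36. CDKN1A (chromosome 6, 36644237 to 36655116, plus strand, hg19) was at 109, 104 and 113 CPM in DHT and at 258, 255 and 256 CPM in DHT+WBM. The DHT+WBM libraries were nearly equal to each other and far above the DHT libraries (log2 fold change 1.24 ± 0.04, edgeR adjusted p = 1.47e-25). That change exceeded those of 98.1% of all tested genes. PLK3, a stress-activated polo-like kinase gene, was rare, at 3.58, 3.12 and 3.12 CPM in DHT and 5.85, 5.03 and 4.65 CPM in DHT+WBM. It rose (log2 fold change 0.66 ± 0.14, edgeR adjusted p = 9.25e-05), with the widest confidence interval of the group, 0.38 to 0.93, from 62 to 120 counts per library. An 82-base stretch of PLK3 overlaps TCTEX1D4 on the opposite strand, which averaged 10.5 counts.

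Its relative PLK2, an early p53 target that acts on centrosomes, was more abundant and changed less. PLK2 was at 66.0, 65.3 and 70.2 CPM in DHT and at 81.0, 81.8 and 79.6 CPM in DHT+WBM, a log2 fold change of 0.27 ± 0.05. The intervals of PLK2 (0.17 to 0.36) and PLK3 did not overlap, although the difference between the paralogs was not tested. BTG2, an antiproliferative regulator of mRNA decay, was steady within each group, at 79.1, 80.5 and 79.0 CPM in DHT and 95.4, 96.2 and 97.0 CPM in DHT+WBM (log2 fold change 0.27). GADD45A, a stress sensor that helps hold cells before mitosis, went from 10.3, 12.2 and 11.4 CPM to 13.5, 15.6 and 14.4 CPM (log2 fold change 0.36 ± 0.09, edgeR adjusted p = 0.000503). In all 5 the lowest DHT+WBM library stood above the highest DHT library. The groups did not overlap, in either direction, for 62.2% of all tested genes. Summed over the arrest genes, CPM went from between 265 and 277 to between 452 and 454, and CDKN1A supplied most of the gain.

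**Figure D2:**
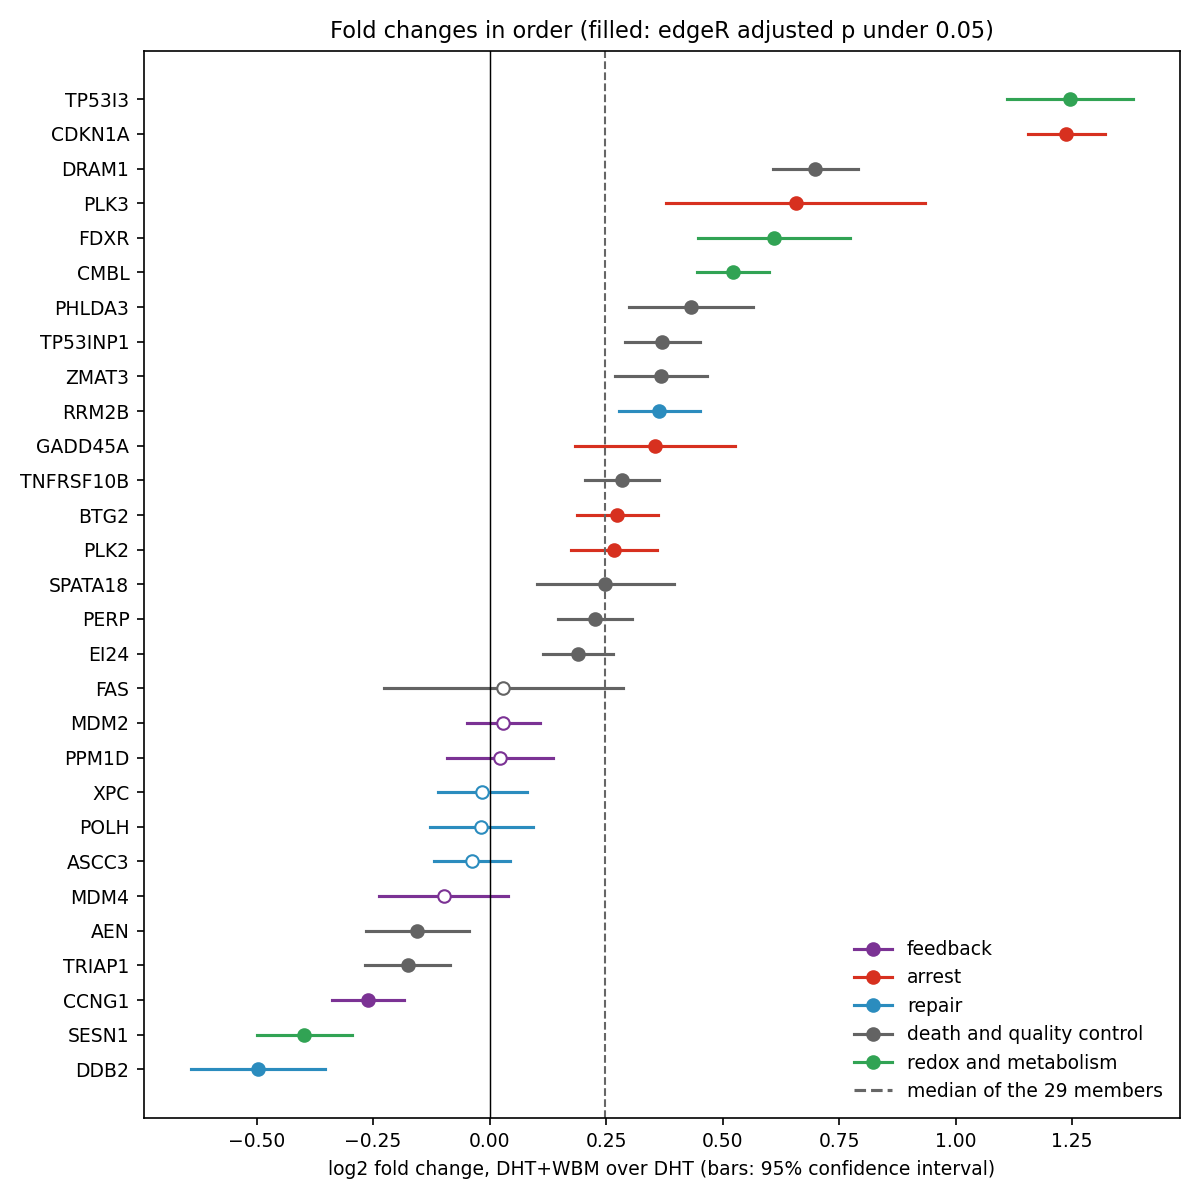
Log2 fold change of DHT+WBM over DHT (x axis) for each of the 29 members in order, coloured by role, with 95% confidence intervals; filled points have an edgeR adjusted p under 0.05 and the dashed line is the members' median of 0.25. TP53I3 and CDKN1A stand apart at 1.24, and DDB2 is lowest at -0.50.

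CDKN1A and MDM2 were set against each other within each library, where scaling cancels. In DHT replicates 1 to 3 there were 34.8, 31.9 and 36.8 CDKN1A counts per 100 MDM2 counts, and in DHT+WBM replicates 1 to 3 there were 81.2, 76.5 and 81.7. The groups did not overlap. The mean log2 ratio went from -1.54 ± 0.10 to -0.33 ± 0.05 (SD, n = 3), a difference of 1.21. The two-sided exact permutation test gave p = 0.1, the smallest value that 3 libraries against 3 allow, and the pair was chosen with earlier results of these data known. CDKN1A took 2.95 to 3.29% of the members' summed reads in DHT and 6.17 to 6.51% in DHT+WBM. MDM2 took 8.94 to 9.24% in DHT and 7.76 to 8.06% in DHT+WBM. That share depends on the levels of the other members, and the log2 fold change of MDM2 itself was 0.03.

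**Figure D3:**
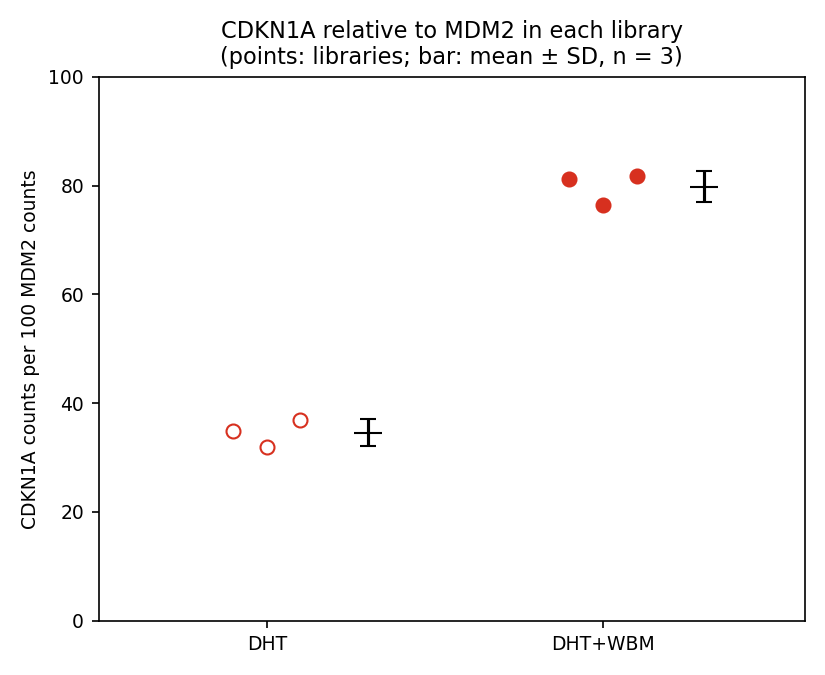
CDKN1A counts per 100 MDM2 counts (y axis) in each of the 6 libraries by group, with the mean ± SD of the 3 libraries beside the points. The DHT libraries lie between 31.9 and 36.8 and the DHT+WBM libraries between 76.5 and 81.7.

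The 5 repair genes had a median log2 fold change of -0.02, and 1 of them rose, 1 fell and 3 missed the threshold. Among all tested genes 29.2% rose and 29% fell, and counts this small are near those shares. RRM2B, which encodes the ribonucleotide reductase subunit that supplies DNA precursors outside S phase, was at 137, 153 and 142 CPM in DHT and at 178, 192 and 185 CPM in DHT+WBM. The groups were separate, and the log2 fold change was 0.36 ± 0.04 (edgeR adjusted p = 2.35e-09). DDB2 encodes the damage-recognition subunit for ultraviolet lesions. It fell from 22.3, 21.6 and 20.8 CPM to 15.1, 15.9 and 14.9 CPM, the largest fall among the members (log2 fold change -0.50 ± 0.07, edgeR adjusted p = 1.58e-07). DDB2 (chromosome 11, 47236493 to 47260769, plus strand, hg19) is also the member with a pair of p53 decamers in its window, shown above.

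The other repair genes did not pass the test. XPC, the partner of DDB2 in finding lesions for nucleotide excision repair, was at 59.7, 63.5 and 62.1 CPM in DHT and at 60.6, 61.3 and 61.4 CPM in DHT+WBM, with a confidence interval of -0.11 to 0.08 for its log2 fold change. POLH, a polymerase that copies past damaged bases, had an interval of -0.13 to 0.09, and ASCC3, a helicase of alkylation repair, one of -0.12 to 0.04. For XPC, POLH and ASCC3 the libraries of the groups overlapped, and the edgeR adjusted p was 0.792, 0.800 and 0.427. Upper-quartile scaling turned the sign of XPC and POLH, to 0.016 and 0.014, and scaling by library totals alone turned the sign of all 3, to 0.031, 0.029 and 0.0085. POLH shares 43 bases of its span with GTPBP2 on the opposite strand, whose mean count of 915 was close to the 911 of POLH and which rose, with a log2 fold change of 0.75.

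Among 11 genes of cell death and of autophagy or mitochondrial quality control, 8 rose, 2 fell and 1 missed the threshold. Their median log2 fold change was 0.25, and among all tested genes 29.2% rose and 29% fell. DRAM1, a lysosomal membrane protein gene that promotes autophagy, changed most, from 73.0, 74.0 and 70.5 CPM in DHT to 111, 121 and 121 CPM in DHT+WBM. The groups were well apart (log2 fold change 0.70 ± 0.04, edgeR adjusted p = 2.34e-16). PHLDA3, a repressor of AKT signalling, went from 18.9, 18.3 and 19.0 CPM to 25.0, 26.2 and 24.8 CPM, a log2 fold change of 0.43 ± 0.07. TP53INP1, which aids p53 activation and autophagy, was abundant and rose from 339, 346 and 329 CPM to 426, 460 and 425 CPM, a log2 fold change of 0.37 ± 0.04. ZMAT3, an RNA-binding protein gene of the p53 response, rose by the same amount on the log2 scale, 0.37 ± 0.05. For these 4 genes every DHT+WBM library was above every DHT library, and the groups did not overlap for 62.2% of all tested genes.

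Of the death receptor genes among the members, TNFRSF10B rose and FAS did not pass the test, and the difference between their changes was not tested. TNFRSF10B encodes death receptor DR5, a receptor of TRAIL. It was at 295, 277 and 275 CPM in DHT and at 338, 351 and 343 CPM in DHT+WBM (log2 fold change 0.28 ± 0.04, edgeR adjusted p = 6.61e-08). FAS, the receptor of FAS ligand, was rare, at 7.45, 6.95 and 4.78 CPM in DHT and at 6.19, 6.01 and 7.32 CPM in DHT+WBM. DHT replicate 3 was the lowest FAS library and the groups overlapped, with a log2 fold change of 0.03 and an interval of -0.23 to 0.29 (edgeR adjusted p = 0.856). Its value was -0.14 without DHT replicate 3 and -0.075 without DHT+WBM replicate 3, neither past the test. FAS overlaps ACTA2 on the opposite strand and STAMBPL1 on the same strand, which averaged 37.2 and 38.5 counts against 133 for FAS.

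Smaller rises were seen for SPATA18, a gene of mitochondrial quality control, PERP, a membrane and desmosome protein gene, and EI24, an endoplasmic reticulum protein gene of autophagy. Their log2 fold changes were 0.25 ± 0.07, 0.23 ± 0.04 and 0.19 ± 0.04, and the libraries of the groups were separate in each. AEN, a nuclease gene of apoptosis, was at 43.3, 41.8 and 44.4 CPM in DHT and at 38.2, 40.9 and 37.3 CPM in DHT+WBM. Its fall of -0.16 ± 0.05 on the log2 scale (edgeR adjusted p = 0.0141) was lost under upper-quartile scaling (adjusted p = 0.0515), under library totals alone (adjusted p = 0.0875) and without DHT+WBM replicate 3 (adjusted p = 0.0741). TRIAP1, a mitochondrial protein gene that restrains apoptosis, also fell, from 76.1, 75.1 and 79.1 CPM to 68.6, 67.0 and 68.3 CPM (log2 fold change -0.18 ± 0.05, edgeR adjusted p = 0.00104).

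Of the 4 redox and metabolism genes, 3 rose and 1 fell, where 29.2% of all tested genes rose and 29% fell. TP53I3 (chromosome 2, 24300303 to 24308085, minus strand, hg19), a quinone oxidoreductase gene, was at 13.6, 14.5 and 15.8 CPM in DHT and at 34.6, 34.0 and 35.4 CPM in DHT+WBM. The libraries were far apart (log2 fold change 1.24 ± 0.07, edgeR adjusted p = 9.98e-19). All 7783 bases of TP53I3 lie within the span of FAM228B on the opposite strand, which averaged 58.2 counts against 506 and itself rose by 0.62 on the log2 scale. The strand setting of the counting is not given in the sources used here, and the part of FAM228B reads in the TP53I3 count was not tested.

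FDXR, the mitochondrial reductase that feeds electrons to iron-sulfur and steroid synthesis, went from 15.2, 11.8 and 14.0 CPM to 20.5, 19.9 and 22.2 CPM. CMBL, a hydrolase gene, went from 219, 233 and 226 CPM to 321, 329 and 323 CPM. Both rose without overlap of the groups, with log2 fold changes of 0.61 ± 0.08 and 0.52 ± 0.04 (edgeR adjusted p = 3.20e-08 and 1.06e-14). SESN1, the gene of sestrin 1, which restrains mTORC1 and supports antioxidant defence, moved the other way. It fell from 57.4, 61.0 and 58.2 CPM to 44.0, 43.8 and 46.2 CPM (log2 fold change -0.40 ± 0.05, edgeR adjusted p = 1.26e-08).

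Per kilobase of gene length, which allows levels of different genes to be set side by side, the members spanned from 0.957 CPM per kb for FAS to 145 CPM per kb for EI24 in DHT. CCNG1 was next, at 107 ± 2.67 CPM per kb (SD, n = 3). CDKN1A at 43.8 ± 1.78 and MDM2 at 41.4 ± 1.30 CPM per kb were close to each other in DHT and ranked 8 and 9 of 29. In DHT+WBM, CDKN1A was at 103 ± 0.752 CPM per kb and ranked 2, above CCNG1 at 89.1 ± 3.21, and MDM2 kept rank 9 at 42.2 ± 1.35. TP53I3, despite a fold change equal to that of CDKN1A within their errors, went from 7.21 ± 0.53 to 17.1 ± 0.35 CPM per kb.

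**Figure D4:**
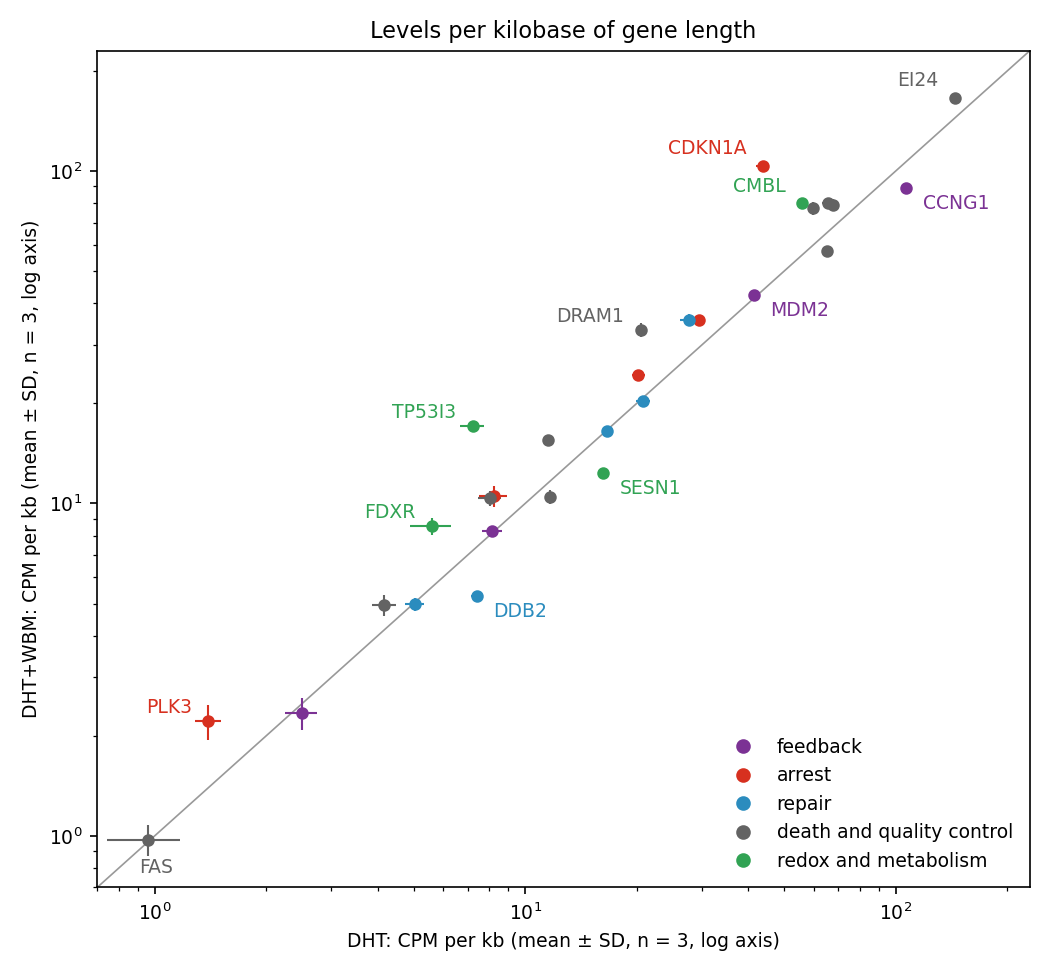
Level of each member in DHT (x axis) and DHT+WBM (y axis) as CPM per kb of gene length on log axes, with means ± SD of 3 libraries; the line marks equal levels. CDKN1A and TP53I3 lie farthest above the line, and DDB2, SESN1 and CCNG1 below it.

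A further 40 genes known as p53 targets, none of them among the 29, were counted for comparison. Of these, 38 were tested, 23 rose, 6 fell and 9 missed the threshold, so that 76.3% were called against 58.2% of all tested genes. The median log2 fold change was 0.21. Among those with a mean of at least 1 CPM over the 6 libraries, the largest rises were those of SFN, GDF15, ENC1, BBC3 and CYFIP2. TNFRSF10C, a decoy receptor gene below that limit, rose by 0.97 on the log2 scale, from 12 to 14 counts per DHT library to 24 to 28 per DHT+WBM library. Its relative TNFRSF10D, at a mean of 48.9 CPM in DHT, fell by -0.16 on the log2 scale (edgeR adjusted p = 0.0115). TNFRSF10A, at 26.8 CPM in DHT, was at -0.12 and did not pass the test (edgeR adjusted p = 0.108). GDF15, a secreted stress cytokine gene, was at 143, 129 and 132 CPM in DHT and at 396, 403 and 414 CPM in DHT+WBM (log2 fold change 1.59 ± 0.04, edgeR adjusted p = 1.30e-28). SFN, the gene of the checkpoint protein 14-3-3 sigma, rose by 1.99 ± 0.29 on the log2 scale, but from 6 to 10 counts per DHT library to 33 to 39 per DHT+WBM library. ENC1, an actin-binding protein gene, and CYFIP2, an actin regulator gene, rose by log2 fold changes of 0.79 and 0.61.

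The BH3-only genes of the mitochondrial death pathway, which p53 is known to induce, went opposite ways. BBC3, the gene of PUMA, rose from 3.25, 2.21 and 2.58 CPM to 4.73, 4.21 and 4.70 CPM (log2 fold change 0.76 ± 0.15, edgeR adjusted p = 4.60e-05). PMAIP1, the gene of NOXA, fell from 15.8, 18.3 and 13.1 CPM to 9.65, 10.6 and 10.8 CPM (log2 fold change -0.60 ± 0.09, edgeR adjusted p = 1.21e-06). Neither pair of groups overlapped. E2F7, a repressor of E2F target genes that also follows the cell cycle, fell most of the 38, with a log2 fold change of -0.77 ± 0.08. TNFAIP8 and IKBIP, genes of survival and death signalling, fell by -0.43 and -0.28 on the log2 scale. The call for PIDD1, a death-domain adaptor gene at -0.34 (edgeR adjusted p = 0.0303), was lost without DHT replicate 1, at -0.13 (adjusted p = 0.444), and without DHT+WBM replicate 3 (adjusted p = 0.113). It was also lost with DESeq2 (adjusted p = 0.138), limma-voom (adjusted p = 0.0540), upper-quartile scaling (adjusted p = 0.0578) and library totals alone (adjusted p = 0.0639).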

How the data were processed

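RNA of LNCaP cells was sequenced in 3 DHT and 3 DHT+WBM libraries, grouped by their titles. The deposited table of the authors holds whole read counts for each gene, not normalized, beside its position, strand and length. The submitters' processing notes name hg19 and, among tools, STAR 2.6.0, edgeR 3.28.1, HTSeq 0.6.0 and bcl2fastq 2.18.0.12. They state no annotation, strand setting or filter.

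Counts were fitted in R 4.3.3 with edgeR 4.0.16 (filterByExpr with a minimum count of 10 and a minimum total of 15, TMM factors, quasi-likelihood F-test, two-sided, group as the only term). Adjusted p-values are Benjamini-Hochberg over all 13466 tested genes. CPM were computed on each library's sum over the 13466 tested genes times its TMM factor (0.979 to 1.02). CPM per kb divide by the deposited gene length. Over all genes the libraries held 19127357 to 21490953 counts. At that depth the fit, tested on simulated data of 13466 genes for DHT+WBM against DHT, called 58% of those given a log2 change of 0.25 and 98% at 1. In the simulation 13170 genes had no change, whereas 58.2% of the real genes were called. The Benjamini-Hochberg cut depends on how many genes change, so these shares need not hold for the real data.

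Members, roles, lists and the CDKN1A to MDM2 ratio were chosen with earlier results of these data known. The text names all 29 members and, of the 40 further targets, the 5 largest called rises and 5 largest called falls with a mean of at least 1 CPM. TNFRSF10A, TNFRSF10C and TNFRSF10D were added after their values were seen. BBC3 and PMAIP1 were set side by side, and CDKN1A, TP53I3 and the decamer matches were chosen for printing, after values were seen. Alternatives were RLE, upper-quartile and total-count scaling, no filter, a filter of 1 CPM in 3 libraries, DESeq2 1.42.0, limma-voom (limma 3.58.1), a threshold of 0.01, a block for the replicate number, and each library left out. Promoter sequences are RefSeq's, on GRCh38.p14.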

Additional observations from a re-analysis of the deposited data

How the results depend on the processing

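The members that were higher numbered 17 under every alternative run, and those that were lower numbered 4 to 6 (4 under upper-quartile scaling, library totals alone, an adjusted p under 0.01 and without DHT+WBM replicate 3, and 6 without DHT+WBM replicate 2). Of 406 refits of single members, 388 kept their direction and their side of the threshold. Calls were lost in the 3 refits of AEN given above and gained in 1 of MDM4. Direction turned in 14 refits, all of members that never passed the test, and the cause was not tested. With upper-quartile scaling the log2 fold change of XPC was 0.016 and that of POLH 0.014, and with library totals alone XPC was at 0.031, POLH at 0.029 and ASCC3 at 0.0085. With each library left out in turn, MDM2 ranged from -0.0027 to 0.052, PPM1D from -0.027 to 0.064, XPC from -0.042 to 0.0025, POLH from -0.066 to 0.010 and FAS from -0.14 to 0.16. The difference in the log2 ratio of CDKN1A to MDM2 stayed between 1.15 and 1.26.

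Replicate numbers are shared between the groups, and the labels do not say whether same-numbered libraries were paired. Deviations from the group mean correlated over genes at 0.0498, 0.0374 and 0.0192 for same-numbered libraries, and at -0.0864 to 0.0465 for other pairs. DHT+WBM replicates 1 and 2 correlated best with their same-numbered DHT library, and DHT+WBM replicate 3 with DHT replicate 2. Correlations this small do not settle whether a pairing exists. With the replicate block, 17 members were higher and 5 lower, and 4079 of all genes were higher and 4030 lower against 3928 and 3909 without it. The CDKN1A to MDM2 difference within same-numbered pairs was 1.21. Depth limited PLK3 and FAS most, at 62 to 159 counts per library.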
